A study of Homo sapiens with 8 samples.

Results

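The regions described here are stretches of chromatin that lay inside a macroH2A1 domain in both siControl libraries of HepG2 cells and in no macroH2A1 domain of either siANP32B library. On a 1 kb grid over chromosomes 1 to 22 (hg38), 1789 stretches met that condition, and the 420 that were at least 10 kb away from any siANP32B domain are called separate stretches below. Membership was thus chosen by the domain calls of the 4 anti-macroH2A1 libraries themselves. HepG2 is a human hepatoblastoma line widely used as a model of liver cells. The cells received an siRNA against the histone chaperone gene ANP32B (siANP32B) or a non-targeting siRNA (siControl) with the reagent RNAiMax, 3 days before harvest, and macroH2A1 was mapped by CUT&RUN, in which an antibody brings a nuclease to its target and the released DNA is sequenced. The anti-macroH2A1 libraries numbered 2 per siRNA, each with its own list of broad domains, and 4 IgG libraries, 2 per siRNA, were not used here. All groups shared the cell line, the transfection and the time, only 1 siRNA sequence served each arm, and nothing states that replicates were separate cultures, so the spread between replicates may be technical. The files hold no expression values, so neither the identity of the cells nor the depth of the knockdown was measured here, and the number of reads behind each list is unknown.

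MacroH2A1 is a variant of histone H2A with a large additional domain, the macro domain, and it replaces canonical H2A in part of the nucleosomes of broad, mostly weakly transcribed stretches of the genome. Histone chaperones such as ANP32B bind histones outside chromatin and take part in placing them into or removing them from nucleosomes. A domain in these lists is a yes-or-no call by a caller of broad enrichment, so its absence in siANP32B cells says that the enrichment there was not called, not that macroH2A1 was gone.

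The siRNA sequences are given as the submitters describe them, 5′ to 3′, because they define the groups:
siANP32B: ugacuaccgagagagugucuu
siControl: ugguuuacaugucgacuaa

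Most separate stretches held no start of a protein-coding gene. Promoters from RefSeq (GRCh38.p14, the assembly of hg38; 250 bases before to 50 after the start, on the strand of the gene) are shown for the 3 longest stretches that hold such a start, and for MUC2, chosen after its values were seen because it lies in a stretch with high domain scores. Capitals mark each CpG, the dinucleotide that is methylated in vertebrate DNA and is dense in most promoters of widely used genes. The windows are chr14:33951025-33951324 on the minus strand for EGLN3, and on the plus strand chr14:32077054-32077353 for ARHGAP5, chr20:41028572-41028871 for TOP1 and chr11:1074624-1074923 for MUC2.
EGLN3: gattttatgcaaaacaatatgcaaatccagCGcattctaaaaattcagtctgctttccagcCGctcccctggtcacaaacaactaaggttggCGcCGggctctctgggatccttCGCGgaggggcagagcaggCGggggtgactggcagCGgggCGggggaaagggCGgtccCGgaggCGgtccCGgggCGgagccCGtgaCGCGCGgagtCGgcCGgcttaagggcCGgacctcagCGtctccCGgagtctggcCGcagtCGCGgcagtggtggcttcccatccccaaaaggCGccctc
ARHGAP5: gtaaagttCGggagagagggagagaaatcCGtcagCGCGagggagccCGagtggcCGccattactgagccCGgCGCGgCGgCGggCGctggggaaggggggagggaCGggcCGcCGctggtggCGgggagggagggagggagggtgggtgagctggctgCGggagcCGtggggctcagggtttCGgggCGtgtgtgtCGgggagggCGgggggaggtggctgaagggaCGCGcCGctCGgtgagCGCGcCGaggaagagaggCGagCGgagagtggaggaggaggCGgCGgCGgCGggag
TOP1: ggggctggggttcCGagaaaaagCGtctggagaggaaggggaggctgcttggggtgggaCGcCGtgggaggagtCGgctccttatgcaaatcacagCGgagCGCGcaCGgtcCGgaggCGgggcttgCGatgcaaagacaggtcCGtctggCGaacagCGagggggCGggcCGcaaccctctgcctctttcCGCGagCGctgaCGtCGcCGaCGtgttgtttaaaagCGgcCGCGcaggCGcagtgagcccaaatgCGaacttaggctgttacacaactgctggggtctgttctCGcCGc
MUC2: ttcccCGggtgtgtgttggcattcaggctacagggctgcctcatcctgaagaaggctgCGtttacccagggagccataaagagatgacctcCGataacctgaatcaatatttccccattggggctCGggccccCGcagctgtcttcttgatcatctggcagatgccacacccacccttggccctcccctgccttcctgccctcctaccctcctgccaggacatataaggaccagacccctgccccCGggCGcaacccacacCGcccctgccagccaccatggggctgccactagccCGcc

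These windows held 27 CpGs at EGLN3, 35 at ARHGAP5, 31 at TOP1 and 9 at MUC2, with 65.0%, 74.3%, 64.7% and 62.0% G or C. The first 3 are thus dense in CpG and the last is not.

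The 420 separate stretches covered 9.668 Mb, or 0.336% of the autosomes and 2.55% of the 379.2 Mb that lay in domains of both siControl libraries. They were 23.5% of the siControl-only stretches but held 51.2% of the siControl-only length, and 1292 of the 1369 others touched a siANP32B domain. Their median length was 17 kb (interquartile range 10 to 25 kb), with 25 under 5 kb, 22 of at least 50 kb and 8 of at least 100 kb. The 1369 nearer stretches had a median of 4 kb and 286 of them were a single 1 kb bin, against 1 separate stretch of that size. The opposite set, in both siANP32B libraries and at least 10 kb from any siControl domain, had 460 stretches with a median of 21 kb and 11.14 Mb. No test was made between these sets, since the same lists chose them.

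The number rested on all 4 libraries. It was 801 without siControl replicate 1, 1038 without siControl replicate 2, 878 without siANP32B replicate 1 and 879 without siANP32B replicate 2, and the covered length was 25046, 27172, 21887 and 21144 kb in the same order of omission, against 9668 kb with all 4 libraries. Each of the 4 omissions gave more stretches, since the condition then rested on 3 lists.

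**Figure D1:**
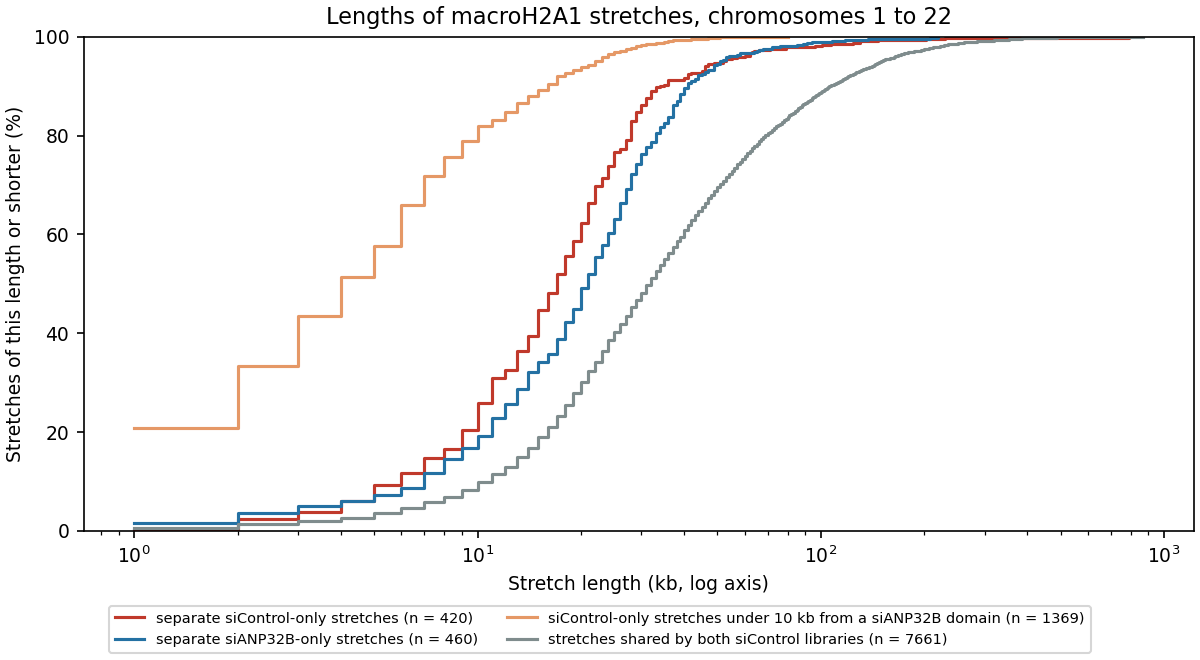
Cumulative share of stretches (%) against stretch length (kb, log axis) for 4 sets on chromosomes 1 to 22. Separate siControl-only stretches have a median of 17 kb, separate siANP32B-only ones 21 kb, siControl-only stretches near a siANP32B domain 4 kb and stretches shared by both siControl libraries 32 kb.

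The distance from a separate stretch to the nearest siANP32B domain ranged from 10 to 3247 kb with a median of 71.5 kb, and 164 stretches were at least 100 kb away. At the limit itself, the 11 stretches at exactly 10 kb were 1 to 46 kb long (median 10 kb) and the 12 at 9 kb, just left out, were 4 to 32 kb long (median 17 kb). For 371 of the 420 (88.3%), the whole domain around the stretch was free of siANP32B domains in both siControl lists, so the call was missing for the entire domain and not for an inner part of it. Over the full autosomal lists, 923 of 7475 siANP32B replicate 1 domains (12.3%) and 959 of 7341 replicate 2 domains (13.1%) met no siControl domain, against 1169 of 8504 siControl replicate 1 domains (13.7%) and 909 of 8026 replicate 2 domains (11.3%) that met no siANP32B domain. Domains that met nothing in the other arm were thus found in both arms at like rates.

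Around the stretches the lists drew together again within about 100 kb. Between 10 and 50 kb from the ends, siANP32B domains covered 8.52% and 9.58% of the sequence in replicates 1 and 2, against 21.6% and 18.9% for siControl domains. Between 100 and 200 kb the shares were 19.7% and 20.8% in siANP32B libraries and 20.5% and 17.7% in siControl libraries, near the autosomal shares of 19.6% and 19.4% for siANP32B and 17.9% and 16.2% for siControl. The 420 stretches fell into 365 intervals between siANP32B domains, and 322 of these intervals held 1 stretch each. The rule fixes the empty sequence closest to the stretches, so these values describe the neighbourhood and test nothing.

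The domains that held separate stretches were shorter and mostly scored lower than their lists as a whole. The rule chose these domains by the lack of siANP32B domains near them, so their lengths and scores are a description. Their median length was 25 kb in each siControl list, against 39 kb over each list. The median score, the caller's own figure for enrichment, was 77.2 in siControl replicate 1 and 91.3 in replicate 2, against 88.2 and 97.2 over the 2 lists. Ranked within its own list, the median holding domain stood at the percentile 38.4 in replicate 1 and 43.5 in replicate 2. Low scores were not the rule throughout: 32 stretches had holding domains in the top 25% of both lists and 66 in the lowest 25% of both.

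Length and score ran against each other. Over the 420 stretches Spearman's correlation between length and score percentile was -0.41 in replicate 1 and -0.42 in replicate 2, given as a description, since stretches share domains, libraries and, by chromosome, copy number. The 66 stretches with low scores in both lists had a median of 28 kb and the 32 with high scores a median of 6.50 kb. Of the 20 longest stretches, 11 had both domains in the lowest 25% and only the 2 over the mucin genes had both in the top 25%. The score percentiles of the 2 lists had a Spearman's correlation of 0.40 with each other.

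**Figure D2:**
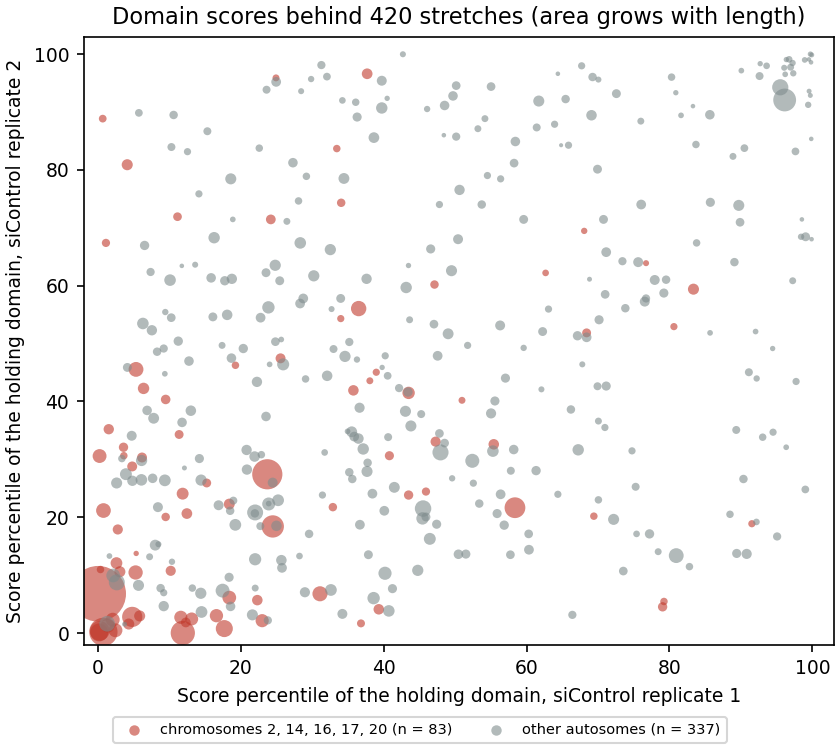
Score percentile of the domain that holds each separate stretch, siControl replicate 1 on the x axis and replicate 2 on the y axis, each ranked within its full list; the area of a point grows with stretch length. The 83 stretches on chromosomes 2, 14, 16, 17 and 20 (red) lie mostly at low percentiles with the longest stretches among them, and those on other autosomes (grey) spread over the whole range.

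Chromosomes did not share the separate stretches evenly. Chromosome 14 had only 10 of them but 1539 kb, 15.9% of all their length and 14.4 kb per Mb, and chromosome 20 had 11 with 596 kb, or 9.26 kb per Mb. On the other 20 autosomes the density was between 0.578 kb per Mb on chromosome 21 and 4.83 kb per Mb on chromosome 2. The opposite set was sparse on the 2 leading chromosomes, with 1.67 kb per Mb on chromosome 14 and 0.855 kb per Mb on chromosome 20.

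HepG2 cells are known to carry extra copies of chromosomes 2, 14, 16, 17 and 20. These hold 20.4% of the autosomal span and 83 separate stretches (19.8%), but 38.2% of the separate length, and 13 of the 20 longest. The excess of length was not shared by all of them: chromosomes 16 and 17 had 2.48 and 1.96 kb per Mb, below the autosomal 3.36 kb per Mb. Of the separate siANP32B-only length, 19.7% lay on these chromosomes. On them the median stretch was 23 kb, against 16 kb elsewhere. Scores were lower on these chromosomes over the whole siControl lists too, with median percentiles of 33.8 and 31.2 in replicates 1 and 2, against 52.5 and 54.0 on the other autosomes. Domain coverage was 29.8% and 28.2% of them in siANP32B libraries and 24.99% and 23.8% in siControl libraries. On the other autosomes it was 16.9% and 17.1% in siANP32B libraries and 16.1% and 14.2% in siControl libraries. The part of copy number in the separate stretches was not tested.

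**Figure D3:**
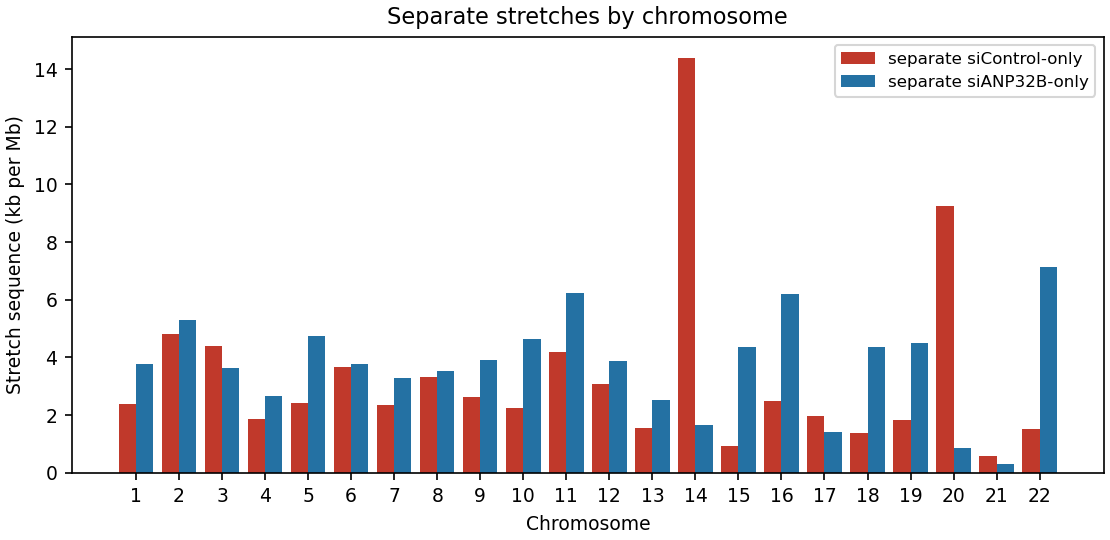
Sequence in separate stretches per chromosome (kb per Mb of chromosome), siControl-only in red and siANP32B-only in blue. The siControl-only set reaches 14.4 kb per Mb on chromosome 14 and 9.26 kb per Mb on chromosome 20, where the siANP32B-only set has 1.67 and 0.855 kb per Mb.

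Most of the separate length on chromosome 14 lay in a single gap of the siANP32B lists. From chr14:24119001-34548000, over 10.43 Mb with 55 protein-coding genes, neither siANP32B library had a domain, whereas siControl replicate 1 had 5 and replicate 2 had 6, covering 15.8% and 19.2% of it. Elsewhere on chromosome 14, domains covered 15.7% and 18.3% in siANP32B libraries and 15.7% and 13.9% in siControl libraries. The gap held 5 separate stretches with 1.329 Mb of sequence shared by both siControl libraries. The next interval in that order, on chromosome 20, held 0.213 Mb.

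The siControl domains inside the gap were mostly low in score, with a median percentile of 23.7 in replicate 1 and 3.43 in replicate 2, and none above 58.4 and 27.4. The gap was overlapped by 7 regions of the authors' deposited table, 6 of them lower after siANP32B and 1 not called, with a median log2 fold of -0.51 (range -0.94 to -0.36). The 138 other regions of chromosome 14 had a median of -0.50 in the authors' deposited table, and 69 of those were lower. The median fold inside the gap was thus like that of the rest of the chromosome, while the share of regions called lower was larger inside it. The gap was found from the domain lists of the same libraries that these folds compare, and it holds only 7 regions. The counts are thus a description and nothing is read from them.

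**Figure D4:**
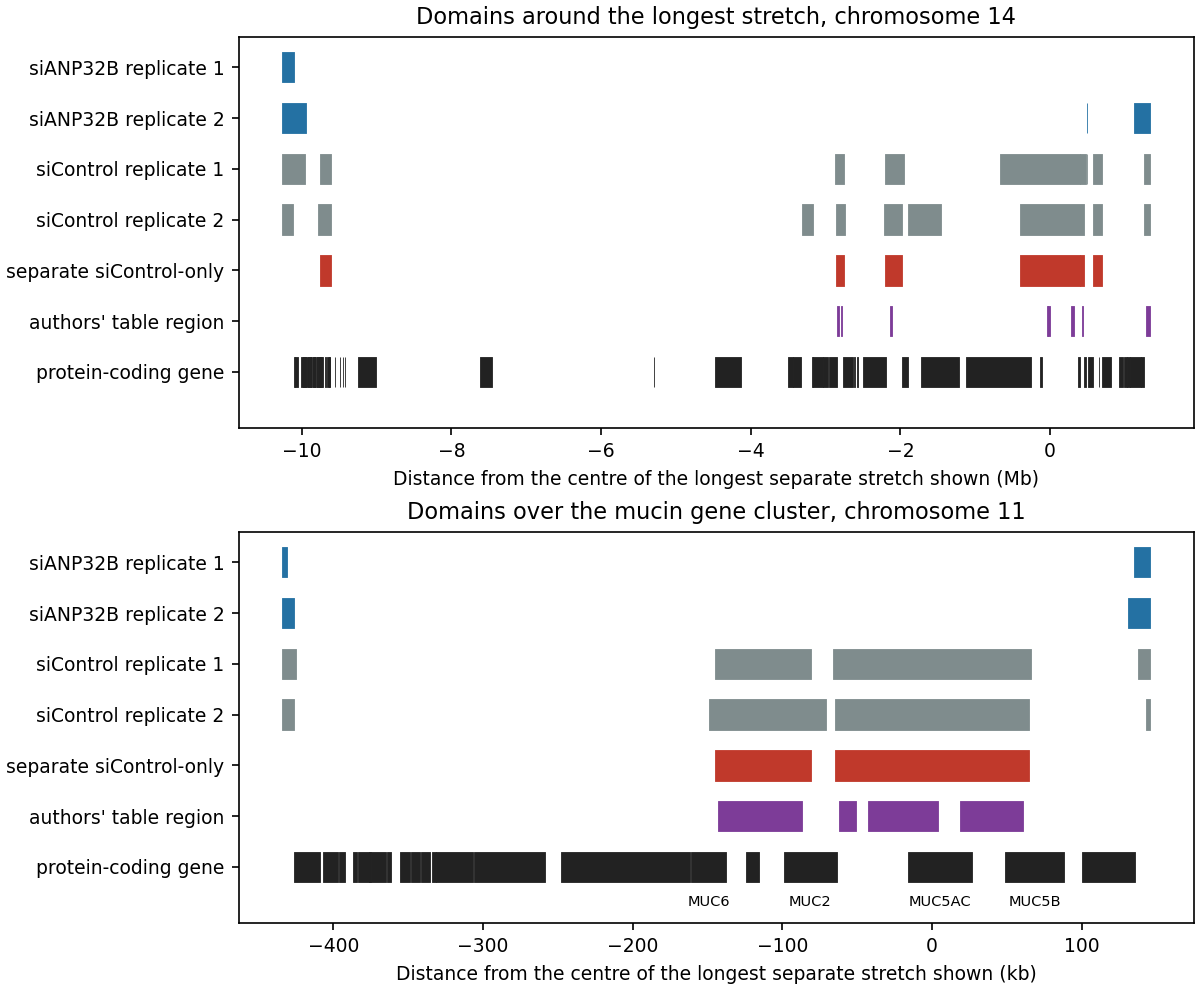
Domains in the 4 libraries (siANP32B in blue above siControl in grey), separate siControl-only stretches (red), regions of the authors' table (purple) and protein-coding genes (black), by distance from the centre of the longest stretch shown. On chromosome 14 the siANP32B rows are empty over 10.43 Mb while siControl domains cover 15.8% and 19.2% of it; over the mucin genes both siControl libraries have domains and neither siANP32B library does.

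The longest separate stretch, chr14:33664001-34454000, spanned 790 kb and made up 8.17% of all separate length. It held EGLN3, a prolyl hydroxylase that marks hypoxia-inducible factors for destruction, in full, 140.2 kb of NPAS3, a transcription factor gene of the bHLH-PAS family that is active in brain, and 21.2 kb of SPTSSA, which encodes a small subunit of serine palmitoyltransferase. Its domain scored 8.25 in siControl replicate 1, where it spanned 1061 kb, and 51.6 in replicate 2, where it spanned 852 kb. A 55 kb stretch 7 kb further along lay in the same replicate 2 domain and reached into SPTSSA and, by 0.063 kb, EAPP.

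The other long stretches of the gap met parts of genes or a dense gene cluster. The 230 kb stretch chr14:31856001-32086000 lay mostly between NUBPL, an assembly factor of respiratory complex I, and ARHGAP5, a GTPase-activating protein gene, with 5.22 and 8.70 kb of overlap. The 147 kb stretch chr14:24297001-24444000 was of another kind, with 10 genes wholly inside it: the leukotriene B4 receptor genes LTB4R and LTB4R2, CIDEB, a gene for a lipid droplet protein of hepatocytes, the adenylyl cyclase gene ADCY4, the necroptosis kinase gene RIPK3, the transcription factor gene NFATC4, NYNRIN, KHNYN, CBLN3 and SDR39U1. NOP9, a ribosome biogenesis gene, and DHRS1 were covered in part. Beyond an 8 kb siANP32B replicate 2 domain, a further 124 kb stretch held the muscle cofilin gene CFL2 in full and the edges of SNX6 and BAZ1A.

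On chromosomes 16 and 20 the long stretches mostly had low scores as well. The 202 kb stretch chr20:40827001-41029000 covered 2 long noncoding RNA genes and ended 178 bases beyond the start of TOP1, the gene of DNA topoisomerase I, in domains that scored 26.4 and 27.1. The 79 kb stretch chr20:31439001-31518000 held the beta-defensin genes DEFB123 and DEFB124 and the small GTPase gene REM1, with 3.56 kb of HM13 at its end. Others reached 2.88 kb into TAF4, a subunit gene of the general factor TFIID (57 kb), and lay inside PLCB4, a phospholipase C gene (53 kb, equal in length to a stretch on chromosome 1 that is not counted among the 20 longest).

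Both long stretches of chromosome 16 entered SNX29, a sorting nexin gene. One of 71 kb held NPIPB2 and TNFRSF17, the gene of the plasma cell receptor BCMA, and touched GSPT1, and one of 96 kb reached CPPED1. NPIPB2 belongs to a family of near-identical copies, and CNTNAP3, with 9.29 kb in a 66 kb stretch of chromosome 9, has a close copy as well, so the values there are uncertain; how reads were placed between copies was not tested. The remaining 5 of the 20 longest lay on chromosomes 2, 3 and 6. Among these only the 60 kb stretch at HIVEP2 met a protein-coding gene, by 3.73 kb.

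The mucin cluster on chromosome 11 stood at the other end of the score range. MUC6, MUC2, MUC5AC and MUC5B lie side by side and encode the gel-forming mucins that epithelia secrete. Separate stretches of 64 kb (chr11:1029001-1093000) and 130 kb (chr11:1109001-1239000) covered MUC5AC in full, 55.1% of MUC2, 40.7% of MUC5B and 32.3% of MUC6. The domains of the first scored 184.9 and 184.3 and those of the second 191.1 and 172.1 in siControl replicates 1 and 2, at percentiles from 92.1 to 96.1 of their lists. The nearest siANP32B domains were 212 kb from the first and 66 kb from the second.

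All 4 regions of the authors' deposited table in the mucin stretches were lower after siANP32B, as were 58.4% of all 4474 regions. The log2 folds of these 4 ran from -0.97 over chr11:1131001-1178000 (false discovery rate 3.98e-06) to -0.53 over a region of 11 kb (0.0120). The median over all regions of the authors' deposited table was -0.54. For the region of 56 kb over MUC6 and MUC2 the fold was -0.73, and 6 of its 37 windows were down in the authors' deposited table, whereas all 31 windows of the region towards MUC5B were down.

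Few separate stretches could be set beside the authors' comparison. Only 30 of 420 (7.14%) overlapped a tested region, against 40.4% of the 7661 stretches shared by both siControl libraries and 3.04% of the separate siANP32B-only stretches. The count was 61 of 878 without siANP32B replicate 1, 74 of 879 without siANP32B replicate 2, 29 of 801 without siControl replicate 1 and 39 of 1038 without siControl replicate 2. With a common score limit on all lists it was 243 of 1021. The authors' deposited table has no region under 10 kb, and 1 shared base counted as overlap. Of the 334 stretches that were at least 10 kb long, 19 overlapped a region. Why few stretches overlapped a region was not tested. Stretches with a tested region had holding domains at median percentiles of 78.6 and 88.7 in replicates 1 and 2, against 36.5 and 41.6 for those without. The tested regions thus lay at the better-scored members.

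Among the 35 regions of the authors' deposited table that overlapped a separate stretch, 32 were lower after siANP32B at a false discovery rate of 0.05, 0 were higher and 3 were not called, where 58.4% of all 4474 regions were lower and 3.82% higher. The table compares the libraries whose lists chose the stretches, so this count is a description and nothing is read from it. Every one of the 35 folds was below 0, with a median log2 fold of -0.79 (interquartile range -0.96 to -0.59), against -0.54 (-0.74 to -0.29) over all regions of the authors' deposited table. For 6 of the 35 the log2 fold was -1 or lower, against 5.77% of all regions of the authors' deposited table. Without siANP32B replicate 1 there were 60 lower regions in the authors' deposited table, without siANP32B replicate 2 there were 69, and without siControl replicate 1 or 2 there were 31 and 38. How many regions were overlapped under each omission was not counted. These 4 counts therefore give no share to set beside 58.4%, and they vary with the number of stretches. Of 265 windows in these regions 190 (71.7%) were down and 0 up in the authors' deposited table. Over all regions of the authors' deposited table, the share of windows that were down was 52.5%.

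The table does not write which siRNA is on top of its folds. They were read as siANP32B over siControl because the regions with positive folds that were called lay in domains more often after siANP32B, 99.4% in both siANP32B libraries against 89.3% and 82.1% in siControl libraries. That reading rests on the same lists as the stretches.

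**Figure D5:**
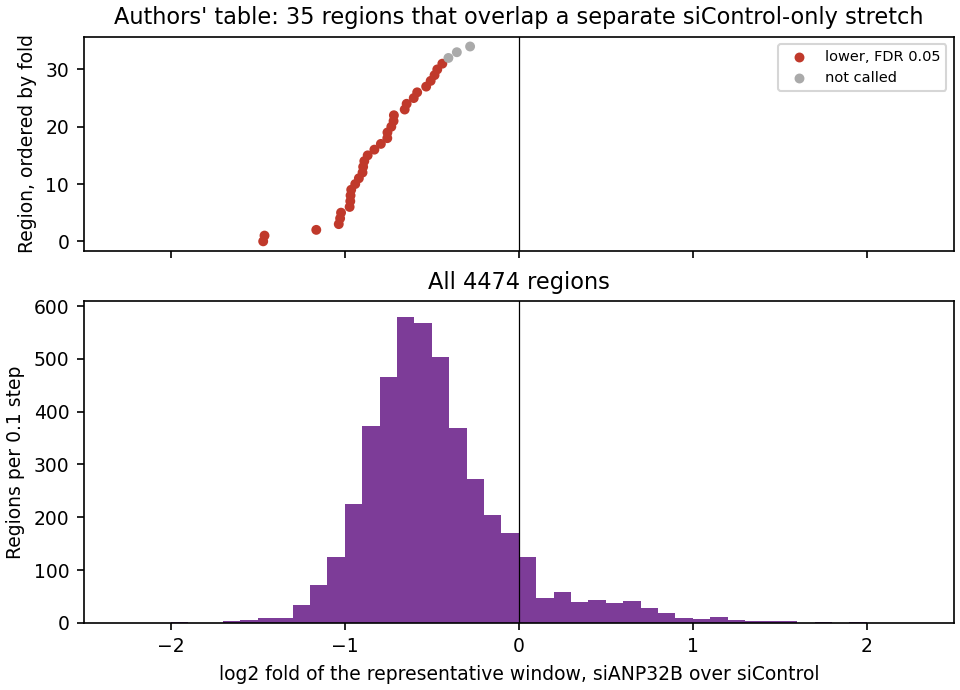
Upper panel, log2 fold (siANP32B over siControl, representative window) of the 35 regions of the authors' deposited table that overlap a separate stretch, ordered by fold, with 32 lower (red) and 3 not called (grey). Lower panel, folds of all 4474 regions in steps of 0.1; all 35 lie below 0 with a median of -0.79, and the median of all regions is -0.54.

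The smallest false discovery rate among these regions (2.97e-13 in the authors' deposited table) belonged to ZFP1, a zinc finger gene on chromosome 16, with a log2 fold of -1.46 over 12 kb. The stretch there, chr16:75112001-75140000, was 28 kb long and took 97.2% of LDHD, the D-lactate dehydrogenase gene, and 39.4% of ZFP1. A fold of -1.47 followed at a 28 kb stretch without any annotated gene, chr7:46539001-46567000 (7.39e-10 in the authors' deposited table). Another gene-free stretch, chr6:100286001-100311000, had a fold of -1.16 in the authors' deposited table. In these 3 stretches the whole siControl domain was free of siANP32B domains in both lists.

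Several of the others were short stretches with high scores. Their tested regions could reach beyond the stretch, so the fold is not that of the stretch alone. Of the 35 regions, 21 lay wholly inside a stretch and 25 had at least 50% of their length inside. That share was 52.9% at GABRG3 and 50% at PLD5. At GABRG3, a GABA receptor subunit gene on chromosome 15, a 9 kb stretch had domains at percentiles of 97.0 and 97.7 and a log2 fold of -1.03 in the authors' deposited table. A 3 kb stretch outside genes on chromosome 4 (chr4:162451001-162454000) had percentiles of 99.9 in both lists and a fold of -1.03 in the authors' deposited table, over a region of 11 kb of which 27.3% lay in the stretch. The phospholipase family gene PLD5 had -0.96 in the authors' deposited table, and PADI1, which encodes an enzyme that converts arginine to citrulline in skin proteins, had -0.89. In the long stretches of chromosome 14, the strongest regions had -0.94 between EGLN3 and SPTSSA and -0.87 between NUBPL and ARHGAP5 in the authors' deposited table. The 4 remaining places, 3 over long noncoding RNA genes on chromosomes 4, 8 and 12 and 1 outside genes on chromosome 5, had folds between -1.02 and -0.92 in the authors' deposited table.

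Protein-coding genes took up 31.8% of the separate stretch sequence, other annotated genes 18.6% and sequence outside annotated genes 49.5%. The corresponding shares were 30.5%, 17.1% and 52.4% for sequence shared by both siControl libraries, 42.3%, 15.8% and 41.9% for separate siANP32B-only stretches, and 42.1%, 13.8% and 44.1% for the autosomes as a whole. In these shares of sequence the separate siControl-only stretches resembled the siControl domains they came from. By number, 199 stretches (47.4%) met a protein-coding gene, 105 only another kind of gene and 116 (27.6%) no annotated gene. Here they differed from the stretches shared by both siControl libraries, of which 56.1% met a coding gene and 18.9% no annotated gene. For separate siANP32B-only stretches the shares were 51.1% and 23.5%. Stretch length differed between these sets and was not adjusted for. With all 4 libraries the median stretch had a coding share of 0%, and 114 stretches (27.1%) lay wholly inside coding genes. That share was 17.7% for stretches shared by both siControl libraries and 30.0% for separate siANP32B-only stretches. The number with a coding gene was 453 of 878 and 393 of 879 without siANP32B replicate 1 or 2, and 374 of 801 and 587 of 1038 without siControl replicate 1 or 2.

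The classes differed little in length. The median length was 17 kb with a coding gene, 20 kb with other genes only and 15 kb without genes, and no gene-free stretch was longer than 40 kb. The median score percentiles in replicates 1 and 2 were 36.8 and 42.3, 31.7 and 33.6, and 44.7 and 50.0 in the same order of classes. Within 1 Mb on either side the median was 5.01 protein-coding genes per Mb, against 6.91 around separate siANP32B-only stretches and an autosomal mean of 6.65. The 221 stretches without a coding gene were a median of 66.3 kb from the nearest one.

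The 229 protein-coding genes met by a separate stretch were 1.20% of the 19126 on the autosomes, and many of them were long. Their median span was 82.4 kb, against 24.5 kb over all, and 102 (44.5%) spanned at least 100 kb, against 16.8%. No adjustment for gene length was made. Genes met by several stretches included ERBB4, the gene of a neuregulin receptor, with 4 stretches and 82 kb of overlap, LRP1B, a receptor gene of the LDL receptor family, with 3 stretches and 57 kb, and with 2 stretches each ROBO2, an axon guidance receptor gene, DLG2, a synaptic scaffold gene, and CADM2, a cell adhesion gene. Each of these overlaps was 7.05% of the gene or less.

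Other genes had most of their body in separate stretches. At least 50% of the span lay in separate stretches for 49 genes, of which 30 were wholly inside. After NPIPB2 (49.4 kb) and MUC5AC (43.2 kb), the largest covered lengths were at CMKLR2, a chemerin receptor gene (39.7 kb, 93.2% of the gene), SYT13, a synaptotagmin gene (32.0 kb, 69.5%), ZYG11A (29.2 kb, 56.0%), EGLN3 (26.8 kb) and the metalloprotease gene MMEL1 (25.02 kb, 59.0%). SPTSSA, CLECL1, NYNRIN, MUC2, KHNYN, STKLD1, EFCAB12, ADCY4, HOOK2, NFATC4, SLFN14, GHRH and TMEM145 completed the first 20, with 9.69 to 22.5 kb each. GHRH encodes growth hormone-releasing hormone and lay wholly in a stretch. The body of CMKLR2 was 0% covered in both siANP32B libraries, against 93.0% and 100% in siControl replicates 1 and 2.

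Of 28 gene lists, 15 had no member in a separate stretch, among them hepatocyte products and liver enzymes (0 of 34), liver transcription factors (0 of 18), blood and immune genes (0 of 24), cell cycle inhibitors and p53 targets (0 of 18), imprinted genes (0 of 22), ANP32, macroH2A and histone chaperone genes (0 of 18), replication-dependent histones (0 of 69), keratins (0 of 55), olfactory receptors (0 of 389), HOX genes (0 of 39) and oxidative phosphorylation subunits (0 of 91). Keratin-associated proteins, SOX and POU factors, chemokines and interleukins with their receptors, and ribosomal proteins likewise had none. These counts stand beside the 1.20% of all coding genes that were met, at which the smaller lists hold few or no members. Apart from microRNA genes, the largest lists were zinc finger genes, olfactory receptors and solute carriers, and each would hold several at that rate. Gene length was not adjusted for, and nothing about the groups is read from these counts. Liver or immune genes outside the lists were met, such as CIDEB and TNFRSF17 in full, 53.6% of the lymphocyte activation gene CD69 and 24.7% of the complement gene C9, all chosen after their values were seen. Zinc finger genes had 1 member of 544, ZFP1.

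The other lists of protein-coding genes had 1 to 3 members each. They were EGLN3 among 21 hypoxia and glycolysis genes, NPAS3 among 16 bHLH-PAS genes, COL4A1 and COL19A1 among 42 collagens, CYP39A1, a hydroxylase of bile acid synthesis, and CYP4F12 among 55 cytochromes P450, SLC9B1, SLC8A1 and SLC25A27 among 376 solute carriers, ABCD2 among 43 ABC transporters and LAMA2 among 38 integrins and laminins. The desmosomal cadherins DSC3 and DSC2 were met out of 93 cadherins, KCNIP4 out of 93 potassium channel genes, FOXK2 out of 43 forkhead genes and ADAM32 out of 62 protease genes. SLC9B1 had 29.7% of its span in 2 stretches, ABCD2 24.8% and ADAM32 21.99%, and the other genes of these groups except EGLN3, ZFP1 and SLC25A27 (48.4%) had 16.1% or less. Of 1862 microRNA and microRNA host genes, 4 (0.215%) were met, beside 1.20% of all coding genes. They were MIR3195 in the stretch that reaches TAF4, MIR5684 inside HOOK2, and the host genes MIR4500HG and MIR3976HG. ANP32B itself was 0% covered by domains in the 4 libraries. MACROH2A1 was covered by 1.52% and 0% in siANP32B libraries and by 31.8% and 4.55% in siControl libraries, and MACROH2A2 by 21.3% and 3.28% against 26.2% and 0%, with no separate stretch in either.

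Starts of 70 protein-coding genes lay in 52 of the stretches, as 88 promoter entries of RefSeq, since some genes have several starts. In G or C and CpG content these promoters looked like promoters at large. Their medians were 63.5% G or C and 20.5 CpGs in the 300 bases, against 62.7% and 21 over 21156 autosomal entries of coding genes. At least 20 CpGs were found in 51.1% of them, against 46.5% at starts in separate siANP32B-only stretches, 44.7% at starts in sequence shared by both siControl libraries and 53.4% over all entries. The TATA box TATAAA, searched on both strands, was in 4 of the 88 (4.55%), against 9.51% over all entries. It was in 15.8% at starts in separate siANP32B-only stretches and 11.7% at starts in sequence shared by both siControl libraries. CCAAT was in 31.8% of the 88, against 34.4% over all entries. The E-box CACGTG was in 6.82% (8.25% over all entries) and the AP-1 motif TGACTCA in 5.68% (3.98% over all entries). The cAMP response motif TGACGTCA was in 0 of 88, against 2.31% over all entries. Of the promoters printed above, only MUC2 held any of these motifs, CCAAT on the opposite strand. Starts in 1 stretch are not independent, and a match of letters is not a bound site.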

How the data were processed

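Build hg38 and the tools edgeR, SICER, deepTools, SAMtools, Bowtie2 and Trim Galore are named per the submitters' processing notes, without versions or settings; which control entered the domain calls and how libraries were scaled is not stated in what was used here. Each anti-macroH2A1 library came with a list of domains that the authors deposited, whose ends fall on whole kb and which carry 1 score each. They also deposited a table of regions with, per the file headers, a p-value, a false discovery rate, the log2 fold of a representative window (log2 being the edgeR convention) and other columns that count windows, not reads.

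Bins of 1 kb in both siControl lists and neither siANP32B list were joined into stretches, and those with at least 10 kb to any siANP32B bin were kept. Table regions counted as overlapping with 1 shared base, genes by their RefSeq span (GRCh38.p14). Scores ranked domains only within a list. The stretches were chosen by the contrast itself, so no test was made. Python 3.11.15, numpy 2.4.6 and pandas 2.3.3 were used, and the stretch finder was tested on simulated lists. Alternatives changed the distance, length, score and overlap limits and left out libraries or chromosomes.

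The stretches, gene lists and named genes (the 20 longest stretches, the 15 table regions with the smallest p-values, the 20 coding genes with the longest coverage among those with at least 50%, up to 4 per list) were chosen with earlier results of these data known. Depth is unknown, so no interval is given. The genes of 1 of the 20 longest stretches are not reported here.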

Additional observations from a re-analysis of the deposited data

How the results depend on the processing

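Requiring 50 kb from siANP32B domains left 254 stretches, 119 with a coding gene. Stretches of at least 10 kb left 19 with a table region and 21 lower regions in the authors' deposited table. Equal numbers of best-scored domains gave 5861 kb. Dropping the lowest 25% of siControl scores gave 217 stretches, 3402 kb, 101 with a coding gene and a coding share of 37.5%. A common score limit on all lists gave 1021 stretches, 35566 kb, 243 with a table region, 221 lower regions in the authors' deposited table and 555 with a coding gene. Without 1 library, the ranges were 801 to 1038 stretches, 21144 to 27172 kb, 29 to 74 with a table region, 31 to 69 lower regions in the authors' deposited table, and 374 to 587 with a coding gene. Without chromosomes 2, 14, 16, 17 and 20 the length was 5977 kb, and without chromosome 14, an alternative chosen after seeing the data, 410 stretches and 8129 kb. Counting gene starts gave 52 stretches, and the median coding share over stretches was 0%. The counts of lower regions come without the number of regions overlapped in each setting, so they are not shares. The cause of these shifts was not tested. The replicate block was added after seeing the data. With it, pair 1 alone gave 1710 stretches with 49588 kb and pair 2 alone 1348 with 43165 kb. In these counts the 10 kb limit was applied to each pair's own stretches. Before that limit, requiring the condition in both pairs gives the same bins as the rule itself. Unknown depth and the score scale limit every comparison between lists.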
